A study of Mus musculus with 2 samples.

Results

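The genes that decide whether a damaged oocyte lives or dies were examined in the newborn ovary: Trp63, Trp53 and Chek2, which sense or relay DNA damage, and Bax, Bcl2, Bcl2l1, Mcl1, Bcl2l11, Bbc3 and Pmaip1 of the BCL2 family. The 10 genes were chosen by name, not by a rule on their values, from the 31057 genes of the count tables. All were found there once. Earlier results of these data were known when the genes were chosen. The data are 2 single-cell RNA-seq libraries of whole ovaries from CD1 mice at postnatal day 2, without treatment, mutation or time course, each pooled from several pups of 1 female. The 3′ end of each transcript was captured in droplets and counted by unique molecular identifier (UMI), so a count stands for a captured molecule. The libraries are the replicates (n = 2). The pooled pups cannot be told apart.

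At this age most oocytes are arrested in meiotic prophase, and the pool of primordial follicles is being settled. TAp63, the long form of the protein made from Trp63, is known as the guardian of this pool: it is held inactive until CHEK2 and casein kinase 1 phosphorylate it after DNA breaks, and it then switches on Bbc3 (PUMA) and Pmaip1 (NOXA). These BH3-only proteins, and Bcl2l11 (BIM), bind the survival proteins BCL2, BCL-XL (from Bcl2l1) and MCL1, which frees BAX to open the outer mitochondrial membrane. Trp53 encodes p53, which acts on many of the same target genes.

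Cells were assigned by marker genes to 4 classes, in which germ cells carried Ddx4, Dazl or Ooep, granulosa cells Foxl2, Fst or Wnt6, interstitial cells Col1a2 or Dcn, and mesothelial cells of the ovarian surface Upk3b. This gave 230 and 633 germ cells, 1607 and 564 granulosa cells, 1312 and 2244 interstitial cells, and 164 and 246 mesothelial cells in libraries 1 and 2. The deposited libraries held 4094 and 4847 cells with 54471790 and 59074480 UMIs in all, and 21 barcodes occurred in both. Markers that the assignment did not use were highest in their own class for 6 of 6 germ, 5 of 5 interstitial and 5 of 5 mesothelial genes, but for 1 of 5 granulosa genes. Amhr2 was highest in granulosa cells, whereas Irx3 and Kitl were higher in mesothelial cells and Wnt4 was higher in interstitial cells. Wnt6 stood at 402 and 398 UMIs per 1000000 UMIs in granulosa cells and at 405 and 399 in mesothelial cells. Cells with enough markers of both classes were counted as mesothelial, so Upk3b decided between them. The germ cells of the libraries also fell into different clusters, of which the Bfsp1-led one held 201 and 6 cells and the Gm15389-led one 8 and 304. Germ cells were by far the richest in RNA, with medians of 77615.5 and 49087 UMIs against 9881 and 9666.5 in granulosa cells, and levels below are therefore given as CPM, the UMIs of a gene per 1000000 UMIs.

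RefSeq upstream sequence (GRCm38.p6) is shown for Trp53, Bax and the first listed start of Bbc3. Each window is the 250 bases before the transcription start, 5′ to 3′ on the gene's strand. Of the 8 genes whose windows were used here, only Trp53 and Bax held a p53 half-site. Bbc3 was the gene whose counts varied most from germ cell to germ cell. Capitals mark the p53 half-site, the 10-base unit that p53 and p63 recognise, in pairs, in DNA.
Trp53 (chr11:69580109-69580358, + strand): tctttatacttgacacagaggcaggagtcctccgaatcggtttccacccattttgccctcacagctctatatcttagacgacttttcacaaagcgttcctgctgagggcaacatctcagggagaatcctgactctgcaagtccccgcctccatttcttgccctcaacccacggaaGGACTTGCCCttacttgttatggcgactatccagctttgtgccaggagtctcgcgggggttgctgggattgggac
Bax (chr7:45466899-45467148, - strand): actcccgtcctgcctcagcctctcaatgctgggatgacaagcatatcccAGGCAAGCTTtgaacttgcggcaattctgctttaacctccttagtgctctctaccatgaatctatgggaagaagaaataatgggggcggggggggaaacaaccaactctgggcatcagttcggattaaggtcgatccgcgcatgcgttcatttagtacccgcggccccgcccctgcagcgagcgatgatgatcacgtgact
Bbc3 (chr7:16309333-16309582, + strand): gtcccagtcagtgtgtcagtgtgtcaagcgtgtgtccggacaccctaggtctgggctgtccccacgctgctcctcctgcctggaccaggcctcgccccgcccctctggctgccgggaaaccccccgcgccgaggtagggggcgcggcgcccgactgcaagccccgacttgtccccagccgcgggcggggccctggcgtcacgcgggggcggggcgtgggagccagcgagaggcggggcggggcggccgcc
The half-site began 75 bases before the start of Trp53 and 201 bases before that of Bax. Single half-sites of this kind, read on both strands, occurred in 7.12% of 32536 promoter windows of this length. None was in the windows of the 3 listed starts of Bbc3, which says only that these letters are not in them. The GC-box GGGCGG occurred in 33.0% of all windows, 5 times in the Bbc3 window shown and 7 times in that of Bcl2. No window was used here for Trp63, which had no entry, or for Pmaip1.

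In germ cells Trp63, Chek2, Bax, Pmaip1 and Bcl2l1 were higher than the mean of the other 3 classes, and Bcl2, Trp53, Mcl1 and Bcl2l11 were lower (edgeR quasi-likelihood test on UMIs summed per library and class, adjusted p under 0.05). The calls of Pmaip1, Bcl2l1 and Bcl2l11 were not kept under every setting, and all are returned to below. Pmaip1 had an adjusted p of 0.093 by DESeq2, and Bcl2l11 one of 0.0568 by edgeR after thinning to 2000 UMIs per cell. Bbc3 was the 1 gene not called, with a log2 fold change of 0.22 ± 0.23 (SE) and an adjusted p of 0.403. These 9 of 10 calls, 5 higher and 4 lower, stand beside 79.1% of all 15228 genes tested, of which 42.3% were higher and 36.8% lower. The number of calls is therefore near the background, and the sizes and directions carry the description. The median log2 fold change was 0.27 over the 10 genes and 0.08 over all genes. Against single classes, 8 of 10 were called in comparison with granulosa cells (4 higher, 4 lower; background 77.1%, 40% higher and 37.1% lower), 10 of 10 with interstitial cells (6 higher, 4 lower; background 75.7%, 41.3% and 34.4%) and 7 of 10 with mesothelial cells (3 higher, 4 lower; background 71.5%, 38.7% and 32.8%). Each value is a sum over the cells of a class, and fewer transcribing cells and less RNA per cell cannot be told apart in it. CPM is also relative to all UMIs of a class, so a lower CPM in the RNA-rich germ cells need not mean fewer UMIs per cell. Germ cells held 3.26 and 2.04 Trp53 UMIs per cell. Granulosa cells held 1.56 and 1.79, interstitial cells 1.09 and 0.886 and mesothelial cells 2.79 and 2.43. For Bcl2, germ cells held 0.348 and 0.240 UMIs per cell, against 0.389 to 0.520 in the somatic classes. For Mcl1 they held 3.20 and 1.43, against 0.400 to 1.87. For Bcl2l11 they held 0.478 and 0.243, against at most 0.341 in library 1 and 0.211 in library 2.

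**Figure D1:**
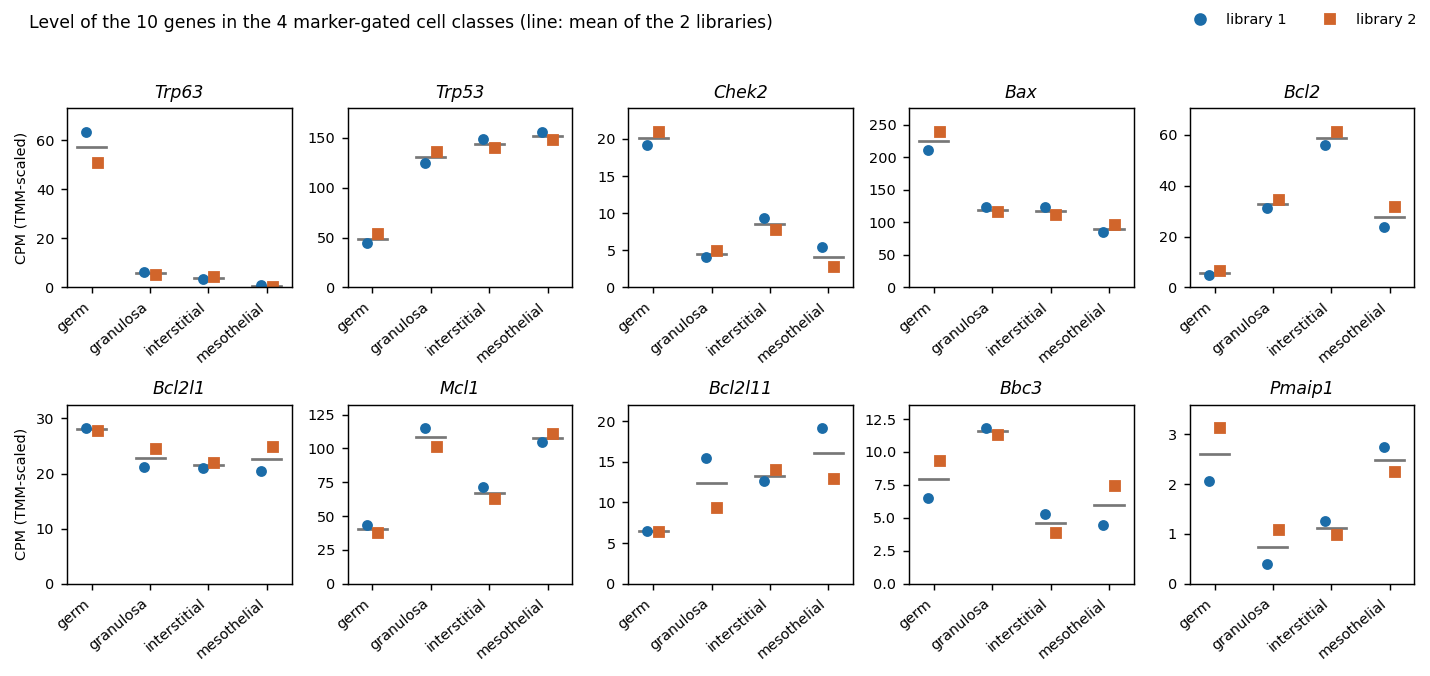
Level of each of the 10 genes (vertical axis, CPM scaled by TMM, from 0) in the 4 cell classes, with a circle for library 1, a square for library 2 and a line at their mean. Trp63, Chek2 and Bax sit highest in germ cells in both libraries, whereas Bcl2, Trp53, Mcl1 and Bcl2l11 sit lowest there.

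Among the damage sensors, Trp63 (chr16:25683763-25892102, + strand) was the most germ-restricted. Its level, in CPM after TMM scaling (edgeR's correction for composition) as for all class levels below, was 63.5 and 50.8 in germ cells, 6.28 and 5.11 in granulosa cells, 3.54 and 4.14 in interstitial cells and 1.02 and 0 in mesothelial cells. The germ values lay far above all somatic values, and the libraries overlapped in none of the comparisons with germ cells. The log2 fold change was 3.30 ± 0.28 (SE, edgeR adjusted p = 9.55e-06) against granulosa and 3.88 ± 0.30 (adjusted p = 4.16e-06) against interstitial cells. Mesothelial cells held 3 UMIs in library 1 and 0 in library 2, so the germ level was 127 times theirs over both libraries, with a 95% counting interval of 43.3 to 615, and at least 64.1-fold higher in library 2 (floor of 3 counts for that library). A 3′ tag cannot separate the long TA form from the short ΔN form of Trp63, since both share their 3′ ends.

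The share of the germ level that remained in granulosa and interstitial cells was higher for Trp63 than for other oocyte genes, although its level in CPM lay within the range of theirs. Granulosa cells held 10.1% and interstitial cells 5.39% of the germ level in CPM in library 1, and 11.3% and 8.85% in library 2. In comparison, 6 oocyte genes that were not used to choose the cells (Sycp3, Dppa3, Figla, Nobox, Gdf9 and Zp3) reached 0.379% to 0.746% of their germ level in granulosa cells of library 1 and 0.579% to 1.26% in library 2, and interstitial cells ranged from 0.380% to 0.635% and from 0.695% to 1.16%. Bcl2l10, an oocyte member of the BCL2 family, stood at 0.355% and 1.21% in granulosa cells. The Trp63 shares in granulosa and interstitial cells thus lay above those of all 6 genes in both libraries. In mesothelial cells they were 1.56% and 0%, where the 6 genes ranged from 0.186% to 1.17% and from 0.634% to 1.13%. Endothelial, immune and perivascular clusters held 0 Trp63 UMIs of 2603411 together, which allows up to 1.152 CPM.

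**Figure D2:**
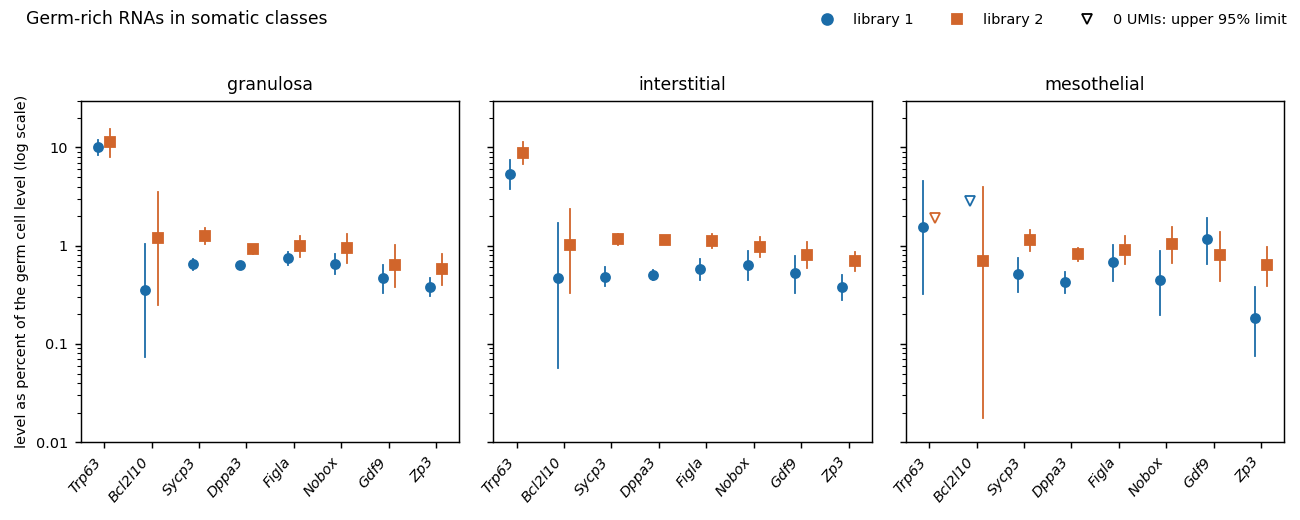
Level of Trp63, Bcl2l10 and 6 oocyte genes in the 3 somatic classes, as percent of their germ cell level (vertical log axis), with 95% Poisson intervals, circles for library 1, squares for library 2 and open triangles for the upper limit where 0 UMIs were found. Trp63 lies at 5.39% to 11.3% in granulosa and interstitial cells, where the other genes lie near 1% or below.

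Within granulosa cells Trp63 was unevenly spread over clusters, which were made without the 10 genes. It reached 9.11 and 14.3 CPM (not TMM-scaled, as for all clusters) in the cluster led by Serpina1b, 10.2 and 7.77 in the cluster led by Colec11 and 6.54 and 4.35 in that led by Cxcl10. The cluster led by Amh and Hsd3b1 held 2.16 and 2.86, that led by Hsd3b1 and Amh 2.49 and 6.50 (9 and 7 UMIs), and the Ly6d-led cluster 2.14 and 1.19. The counts behind these values are small, with 51 and 5 UMIs in the Serpina1b-led and 6 and 2 in the first Amh cluster. The share of cells with a Trp63 UMI was 6.91% and 6.03% of granulosa cells, against 1.83% and 0% of mesothelial cells, which had the higher median depth. At an equal depth of 2000 UMIs per cell the expected shares were 1.28% and 0.882% in granulosa, 0.199% and 0% in mesothelial and 11.6% and 9.82% in germ cells.

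Chek2 (chr5:110839979-110874145, + strand), the checkpoint kinase upstream of p63, stood at 19.2 and 20.97 in germ cells, 4.04 and 4.85 in granulosa, 9.38 and 7.79 in interstitial and 5.47 and 2.73 in mesothelial cells. Both germ values lay above all somatic values. The log2 fold change was 2.20 ± 0.26 against granulosa, 1.23 ± 0.24 against interstitial and 2.35 ± 0.31 against mesothelial cells (edgeR adjusted p = 5.62e-05, 0.00129 and 0.000139). After thinning to 2000 UMIs per cell the last of these was 1.41 and not called (edgeR adjusted p = 0.0782). The intermediate interstitial level came from a pair of clusters, led by Pclaf and Pimreg with Top2a and Cenpa among their leading genes, which are genes of dividing cells. There Chek2 reached 21.1 and 18.0 and 26.2 and 24.4 CPM, close to the germ level, whereas the Lum-led and Icam1-led interstitial clusters held 0.714 to 2.21. The Amh-led granulosa cluster likewise held 15.1 and 14.3, against 1.03 to 2.29 in the Cxcl10-led and Colec11-led clusters.

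Trp53 (chr11:69580359-69591873, + strand) went the other way. It stood at 44.2 and 53.6 in germ cells, 125 and 136 in granulosa, 148 and 140 in interstitial and 156 and 148 in mesothelial cells. All germ values lay below all somatic values, by a log2 fold change of -1.41 ± 0.14, -1.56 ± 0.14 and -1.64 ± 0.15 against the 3 classes in that order (edgeR adjusted p = 2.47e-05, 1.25e-05 and 1.39e-05). A UMI counts a captured 3′ end whatever the transcript length. On that scale Trp63 lay above Trp53 in germ cells of library 1 (63.5 against 44.2) and slightly below it in library 2 (50.8 against 53.6). In every somatic class Trp53 lay far above Trp63.

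**Figure D3:**
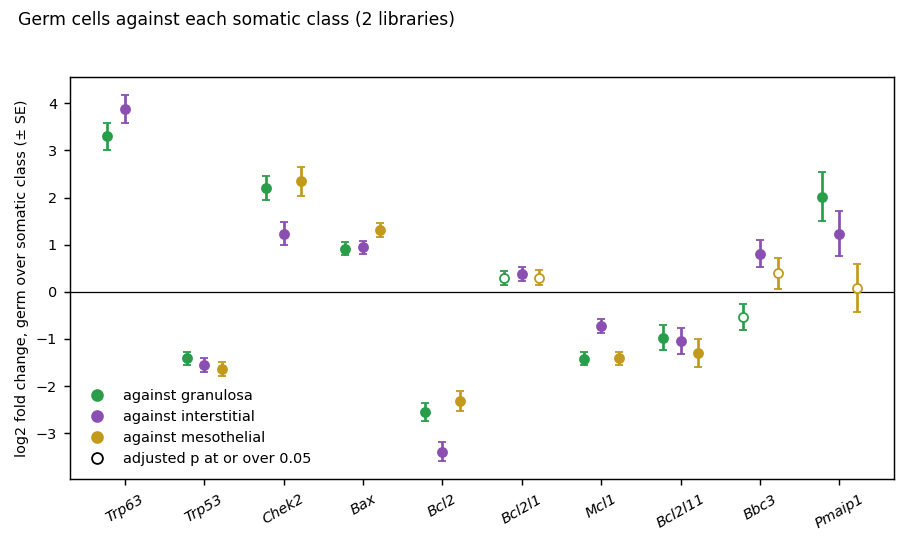
Log2 fold change (vertical axis, with the standard error as bars) of germ cells over granulosa, interstitial and mesothelial cells for the 10 genes, filled where the adjusted p is under 0.05. Trp63 against mesothelial cells is left out because those cells held 3 and 0 UMIs. Bcl2, Trp53, Mcl1 and Bcl2l11 lie below 0 against all 3 classes.

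Of the effector and its inhibitors, Bax (chr7:45461697-45466898, - strand) was higher and most survival genes were lower in germ cells. Bax stood at 211 and 240 in germ cells, 124 and 116 in granulosa, 124 and 111 in interstitial and 85.4 and 95.8 in mesothelial cells. It was the most abundant of the 10 genes in germ cells in both libraries. The log2 fold change was 0.91 ± 0.14, 0.94 ± 0.14 and 1.31 ± 0.14 against the 3 classes (edgeR adjusted p = 0.000303, 0.000240 and 4.55e-05). Exons of Bax overlap the predicted gene Gm45808 on the same strand, though not within its last kilobase.

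Bcl2 (chr1:106538178-106714274, - strand), the founding survival gene, stood at 4.72 and 6.32 in germ cells, 31.2 and 34.2 in granulosa, 55.9 and 61.2 in interstitial and 23.6 and 31.8 in mesothelial cells. It was lowest in germ cells and highest in interstitial cells, without overlap between them. The log2 fold change of germ cells was -2.55 ± 0.20, -3.39 ± 0.20 and -2.32 ± 0.21 against the 3 classes (edgeR adjusted p = 5.67e-06, 1.13e-06 and 1.53e-05). Interstitial cells exceeded the other 3 classes by 1.77 ± 0.14 (edgeR adjusted p = 1.43e-05), and their clusters ranged narrowly, from 50.5 to 69.5 CPM in all but the small Tagln-led cluster (124 and 79.9).

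Mcl1 (chr3:95658788-95663176, + strand), a short-lived survival protein, stood at 43.4 and 37.6 in germ cells, 115 and 101 in granulosa, 71.2 and 63.02 in interstitial and 105 and 111 in mesothelial cells. Germ cells were lowest, and interstitial cells lay between them and the other classes. The log2 fold change of germ cells was -1.42 ± 0.14, -0.73 ± 0.14 and -1.41 ± 0.14 (edgeR adjusted p = 2.27e-05, 0.00124 and 3.12e-05). The granulosa mean hid a wide range, since the Cxcl10-led cluster held 185 and 210 CPM and the Serpina1b-led cluster 163 and 160, while the other 4 granulosa clusters held 71.4 to 100.2. Cxcl10 and Cxcl1, which lead the former cluster, are chemokine genes of the inflammatory response. Egr2 was among the leading genes of both clusters. The part of these genes in the Mcl1 level was not tested.

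Bcl2l1 (chr2:152780668-152831728, - strand), which encodes BCL-XL, was the most even of the survival genes. It stood at 28.2 and 27.8 in germ cells, 21.2 and 24.5 in granulosa, 21.1 and 21.97 in interstitial and 20.5 and 24.8 in mesothelial cells. The germ values were slightly higher, with a log2 fold change of 0.33 ± 0.12 over the mean of the others (edgeR adjusted p = 0.0337), but edgeR's or DESeq2's adjusted p was 0.0538 to 0.358 under 5 other settings. In sums of cells thinned to 2000 UMIs, a single random draw, the difference was -0.44 and not called (edgeR adjusted p = 0.178). The expected shares of cells with a Bcl2l1 UMI at that depth were 5.48% and 4.72% in germ cells. They were 4.46% and 4.52% in granulosa, 4.05% and 4.45% in interstitial and 3.79% and 4.83% in mesothelial cells. By their CPM in germ cells, Bcl2l1 and Mcl1 were the more abundant survival transcripts of the 3, and Bcl2 the least abundant.

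**Figure D4:**
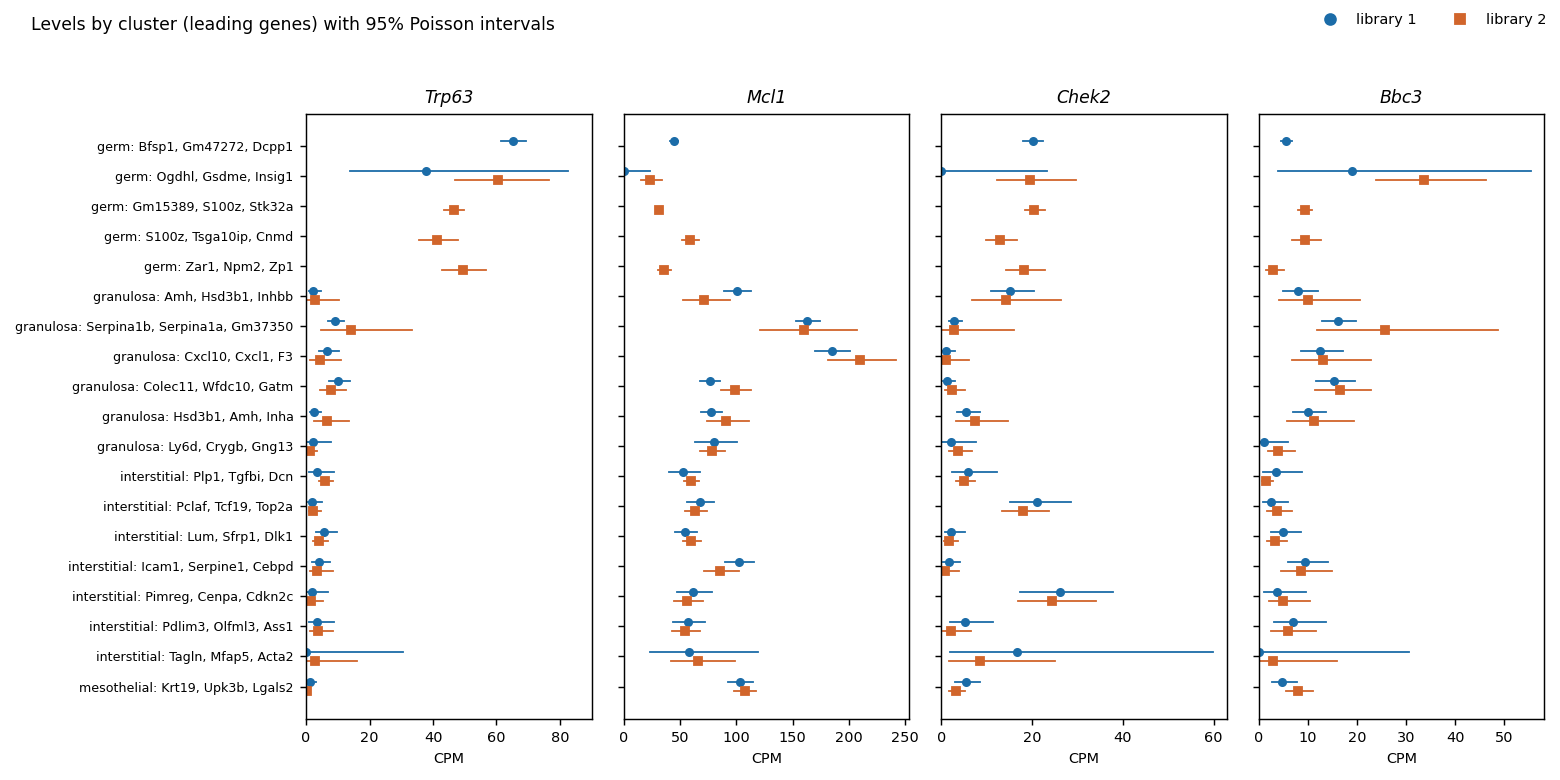
Levels of Trp63, Mcl1, Chek2 and Bbc3 (horizontal axes, CPM, from 0) in the germ, granulosa, interstitial and mesothelial clusters, named by leading genes, with 95% Poisson intervals, circles for library 1 and squares for library 2, shown where a library had at least 20 cells in the cluster. Mcl1 is highest in the Cxcl10-led granulosa cluster (185 and 210), and Chek2 in the Pimreg-led interstitial cluster (26.2 and 24.4).

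The BH3-only genes Bcl2l11, Pmaip1 and Bbc3 were all scarce in the cell classes. Bcl2l11 (chr2:128126038-128162547, + strand) stood at 6.49 and 6.41 in germ cells, 15.5 and 9.29 in granulosa, 12.6 and 14.0 in interstitial and 19.1 and 12.9 in mesothelial cells. Germ cells were lowest in both libraries, by -0.97 ± 0.27, -1.05 ± 0.27 and -1.29 ± 0.29 on the log2 scale (edgeR adjusted p = 0.00890, 0.00625 and 0.00354). The first of these differences was -0.46 without library 1. After thinning to 2000 UMIs per cell those from granulosa and mesothelial cells were -0.999 and -1.12 and not called (edgeR adjusted p = 0.110 and 0.183).

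Pmaip1 (chr18:66458533-66465565, + strand) stood at 2.06 and 3.12 in germ cells, 0.399 and 1.08 in granulosa, 1.25 and 0.982 in interstitial and 2.73 and 2.23 in mesothelial cells. These rest on 35 and 75 UMIs in germ cells and on 8 to 14 in each somatic sum. Germ cells exceeded granulosa cells by 2.02 ± 0.51 and interstitial cells by 1.23 ± 0.47 (edgeR adjusted p = 0.00577 and 0.0388), and overlapped with mesothelial cells (0.09 ± 0.51, adjusted p = 0.891). The germ level of library 2 came in large part from 6 cells described below, which held 34 of its 75 UMIs, 20 of them in 1 cell. Without the cells with 5 or more Bbc3 UMIs, a choice made after the values were seen, the germ level, not TMM-scaled, was 2.09 in place of 2.12 CPM in library 1 and 1.59 in place of 2.88 in library 2. The difference from granulosa cells was then still called (1.54, edgeR adjusted p = 0.0194), whereas those from interstitial cells (0.76, adjusted p = 0.162) and from the mean of the other classes (0.64, adjusted p = 0.137) were not. With all cells, DESeq2 gave adjusted p of 0.136 against interstitial cells and 0.0171 against granulosa cells. The highest level was in clusters outside the 4 classes: immune cells held 31.4 and 46.1 CPM, from 10 and 20 UMIs.

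Bbc3 (chr7:16308393-16318205, + strand) stood at 6.55 and 9.32 in germ cells, 11.8 and 11.3 in granulosa, 5.32 and 3.86 in interstitial and 4.44 and 7.45 in mesothelial cells. Granulosa cells were the highest in both libraries, by 0.94 ± 0.23 over the mean of the others (edgeR adjusted p = 0.00900), and interstitial cells the lowest on average (-0.86 ± 0.26, adjusted p = 0.0204, and -0.39 without library 2). After thinning to 2000 UMIs per cell these differences were 0.93 and -0.83, and neither was called (edgeR adjusted p = 0.0725 and 0.128). Germ cells exceeded interstitial cells by 0.81 ± 0.29 (edgeR adjusted p = 0.0305), a difference of 0.25 without library 2 and with an adjusted p of 0.0758 by DESeq2. With the 10 cells of most Bbc3 UMIs left out, which lowers the germ level by construction, the difference was 0.07 (adjusted p = 0.827), and that of interstitial cells from the mean of the others was -0.61 (adjusted p = 0.0631).

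Each somatic class was also set against the mean of the other classes, germ cells included. In granulosa cells 4 genes were higher and 2 lower, beside 48.3% of all genes (26.2% higher, 22.1% lower). Mcl1 (0.71 ± 0.11), Bcl2 (0.64 ± 0.15) and Trp53 (0.35 ± 0.11) were higher beside Bbc3, and Chek2 (-1.01 ± 0.24) and Pmaip1 (-1.58 ± 0.48) were lower (edgeR adjusted p = 0.000937, 0.00681, 0.0308, 0.00759 and 0.0239). Of these, Bcl2 and Trp53 were at their highest in interstitial or mesothelial cells. With a stricter gate the Trp53 difference was 0.28 and not called (edgeR adjusted p = 0.0882). In interstitial cells 2 were higher, Bcl2 and Trp53 (0.54 ± 0.11, adjusted p by edgeR 0.00322), and Bbc3 was lower, beside 54.8% of all genes (27% higher, 27.7% lower). In mesothelial cells Trp53 (0.65 ± 0.11) and Mcl1 (0.70 ± 0.11) were higher and Trp63, Chek2 (-1.20 ± 0.29) and Bax (-0.70 ± 0.12) were lower, beside 41.7% of all genes (21.5% higher, 20.2% lower). The Chek2 difference was -0.70 without library 2 and -1.83 without library 1. After thinning to 2000 UMIs per cell it was -0.28 and not called (edgeR adjusted p = 0.831).

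The germ level of Bbc3 came in large part from a few cells. Of 230 and 633 germ cells, 172 and 524 had no Bbc3 UMI and 54 and 103 had 1 to 4, but 4 cells of library 1 had 5, 8, 9 and 18 and 6 cells of library 2 had 8, 9, 13, 20, 23 and 26. These 10 cells held 36.0% and 44.2% of all Bbc3 UMIs of germ cells. Without them the germ level, not TMM-scaled, was 4.36 and 4.84 CPM in place of 6.72 and 8.60, near the 5.27 and 3.87 of interstitial cells on that scale. The variance of Bbc3 counts around a level proportional to each cell's UMIs was 5.04 and 9.04 times the mean, where counting alone gives about 1. The other genes ranged from 0.987 to 1.43, except Pmaip1 at 6.53 in library 2. The most Bbc3 UMIs in a granulosa, interstitial or mesothelial cell were 4, 2 and 2, in classes of lower median depth. Of somatic cells with at least as many UMIs as the shallowest of the 10 germ cells (32662 and 17987), which numbered 44 and 243, none had 5 or more and the most were 2 and 3. Of the cells outside the classes, 1 in each library had more, with 36 and 27 UMIs. The first was among cells removed as doublets or by the filters, and the other passed several marker gates.

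Because the cells with 5 or more Bbc3 UMIs were picked by their Bbc3 counts after these had been seen, their other transcripts are described without a test, against germ cells of the same library with at least as many UMIs as the shallowest of them (198 and 405 cells). Pmaip1, the other main target of p63 in oocytes, was found in all 6 such cells of library 2, with 34 UMIs of which 20 in 1 cell, or 157 CPM against 1.36 in the other germ cells. In library 1 the 4 cells held 1 Pmaip1 UMI. Mcl1 was at 97.2 (95% Poisson interval 60.2 to 149) against 34.3 CPM in library 2 and at 64.1 (36.6 to 104) against 44.7 in library 1. Trp63 was at 80.1 (48.9 to 124) against 65.4 in library 1 and at 60.2 (32.0 to 103) against 46.3 in library 2, and Bax at 208 against 216 and 273 (208 to 352) against 223. Trp53 was at 72.1 (42.7 to 114) against 44.7 in library 1 and at 78.7 (45.8 to 126) against 49.2 in library 2. For Trp63, Bax and Trp53 the intervals held the level of the other germ cells. The intervals cover counting error only, not differences from cell to cell, and Chek2 rested on 2 and 4 UMIs.

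Some of the genes that p53 and its relatives are known to activate were at higher levels in the same cells. Of 18 listed p53 target genes other than the BH3-only genes, 17 were measured in germ cells at 1 CPM or more, and 4 of them, Ccng1, Phlda3, Sesn2 and Btg2, had a log2 ratio over 1 in both libraries (with 10 CPM added to both levels), against 0.356% of all 12642 genes. In library 2 alone the count was 11 of 17 (64.7%, against 7.73% of all genes) with a median log2 ratio of 1.88, and in library 1 alone it was 4 of 17 (23.5%, against 1.09%) with a median of 0.38. Of the 17 genes, 7 had a ratio below 0 in library 1 (Cdkn1a, Gadd45a, Gadd45b, Zmat3, Perp, Pidd1 and Rrm2b) and 2 in library 2 (Gadd45b and Rrm2b). The cell of library 1 with 18 Bbc3 UMIs carried 16 of the 32 Ccng1, 8 of the 11 Phlda3, 5 of the 8 Sesn2 and 11 of the 20 Btg2 UMIs of its 4 cells. Without the cell of most Bbc3 UMIs, 2 of 17 genes had a ratio over 1 in library 1 (1.31% of all genes), Ccng1 at 1.26 and Phlda3 at 1.16, while Sesn2 was at 0.90 and Btg2 at 0.40. In library 2 the count without that cell was 9 of 17 (8.01% of all genes), with a median of 1.19. The limit of 5 UMIs was chosen after the counts were seen, as were these examples. Phlda3, an inhibitor of AKT, was found in all 10 cells, at 44.0 and 231 CPM against 0.875 and 1.84 in the other germ cells. Ccng1, cyclin G1, was also found in all 10, at 128 and 407 against 26.1 and 23.6.

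Other targets separated the libraries. Cdkn1a, the cell cycle inhibitor p21, was at 379 against 16.6 CPM in library 2, in 5 of 6 cells, but at 12.01 against 15.1 in library 1. Perp and Eda2r were likewise higher in library 2 (213 against 30.6, and 46.3 against 0.241), whereas the 4 cells of library 1 held 2 and 1 UMIs. Mdm2, which encodes the ubiquitin ligase that restrains p53 and is itself a target, was at 140 against 61.3 in library 1 and at 574 against 59.5 in library 2. Without the cell of most Bbc3 UMIs its log2 ratio fell from 1.07 to 0.50 in library 1 and from 3.07 to 2.88 in library 2. Trp73, the third gene of the p53 family, had 8 UMIs in 3 of the 6 cells of library 2 and 0 UMIs in the 405 other germ cells, and in library 1 it had 0 UMIs against 2.

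The cells with 5 or more Bbc3 UMIs differed from the other germ cells in further ways. Their median UMIs were 57373 and 38749.5 against 81082 and 62302, and their median mitochondrial share was 2.26% and 1.23% against 2.54% and 2.82%. Zp3, a zona pellucida gene of growing oocytes, was at 83.3 against 777 CPM in library 2 and at 781 against 1300 in library 1. Phlda3 was also higher in interstitial cells than in the other classes. The interstitial gene Col1a2 had 2 and 1 UMIs in these cells (8.01 and 4.63 CPM, against 6.50 and 14.9 in the other germ cells), and the part of interstitial RNA in the Phlda3 level was not tested.

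**Figure D5:**
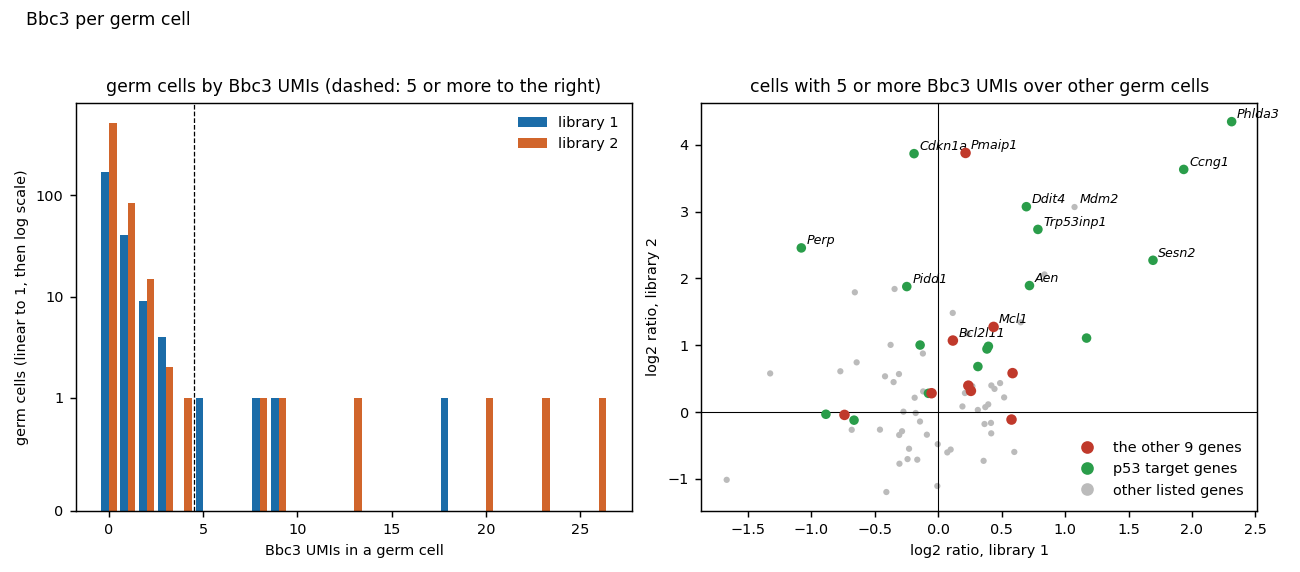
Left, number of germ cells (vertical axis, linear to 1 and then log scale) by Bbc3 UMIs in the cell, in library 1 (blue) and library 2 (orange), with the dashed line at the limit of 5. Right, log2 ratio of levels in cells with 5 or more Bbc3 UMIs over the other germ cells in library 1 (horizontal) and library 2 (vertical), for the other 9 genes and the listed pathway genes. Phlda3, Ccng1 and Sesn2 lie high on both axes, whereas Cdkn1a, Pmaip1 and Perp lie high on the vertical axis alone.

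Germ cells with little RNA, those under 10000 UMIs, were compared with the remaining germ cells. There were 18 such cells (7.83% of germ cells, 42617 UMIs in all) in library 1 and 201 (31.8%, 597195 UMIs) in library 2, with a median mitochondrial share of 0.338% and 0.785% against 2.52% and 2.75%. Of 12462 genes tested 70 were called (0.562%), and none of the 10 was among them by edgeR or DESeq2, with 1 gene at an unadjusted p under 0.05. That gene was Bax, at 95.6 and 150 CPM (TMM-scaled among germ cells) below 10000 UMIs and at 235 and 248 above, a log2 fold change of -0.77 ± 0.23 (edgeR adjusted p = 0.173). The value in library 1 rests on 5 UMIs. As a plain difference of log2 CPM, not from the fit, it was -1.32 without library 2 and -0.80 without library 1. At an equal depth of 2000 UMIs, 13.4% and 23.8% of the shallow and 35.6% and 35.7% of the deep germ cells would carry a Bax UMI. The shallow shares rest on 10 and 120 cells, since 8 and 81 shallow cells had fewer than 2000 UMIs and were left out. The other 9 genes had 0 to 45 UMIs in the shallow cells of a library. Trp63 was at 77.5 against 51.5 in library 2 and at 19.1, from 1 UMI, against 70.6 in library 1. Bbc3 was at 13.8 against 9.45 in library 2 and at 0 against 7.29 in library 1. The shallow cells of library 1 held too few UMIs to give a direction for Trp63 or Bbc3. Their Poisson intervals, not TMM-scaled, were 0.594 to 131 CPM for Trp63 and 0 to 86.6 CPM for Bbc3. On that scale the deep cells of library 1 stood at 65.3 and 6.73, within these intervals. Whether the libraries differ in direction is therefore not known.

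Beside the 10 genes, the other genes of their pathways were listed by role. Their counts of genes higher and lower in germ cells than in the mean of the other classes stand beside 42.3% and 36.8% of all genes and an all-gene median of 0.08, and those of the BCL2 family, the apoptosome and the p53 targets are near these shares. In the BCL2 family, of 11 genes tested out of 13 listed, 5 were higher and 5 lower in germ cells than in the mean of the other classes (median log2 fold change 0.57). Bcl2l10 stood at 42.9 and 37.5 CPM in germ cells and at 0 to 0.404 in the somatic classes. On the same scale it lay above Bcl2l1 and close to Mcl1 there. The mitophagy gene Bnip3 was at 142 and 146 against 1.37 to 18.5, and Bik at 9.67 and 5.58 against 0.135 to 1.37. In contrast Bak1, the other main effector beside Bax, was at 3.30 and 3.83 against 26.6 to 38.5 (log2 fold change -3.11 ± 0.18, edgeR adjusted p = 6.76e-07), and the effector relative Bok at 1.30 and 5.37 against 43.9 to 159. Bcl2l2 was lower too (-2.98 ± 0.19).

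Of the apoptosome, the caspases and their inhibitors, 16 genes were tested, of which 5 were higher and 8 lower (median -0.48). Htra2, which encodes a mitochondrial protease, and Apaf1, the scaffold of the apoptosome, were lower, with log2 fold changes of -2.04 ± 0.12 and -1.73 ± 0.31 (edgeR adjusted p = 5.60e-07 and 0.000663). Birc5, known as survivin and as a mitotic protein, was higher (2.75 ± 0.11), as were Aifm1 (1.26 ± 0.12) and Endog (1.20 ± 0.13), which encode mitochondrial proteins of caspase-independent death.

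Damage kinases and regulators of p53 and p63 were the group with the most genes higher in germ cells, 11 of 15 tested, with 2 lower and a median of 1.14. Csnk1e, a casein kinase 1 isoform of the family that activates p63, was at 394 and 364 against 32.1 to 86.3 (2.93 ± 0.10, edgeR adjusted p = 3.97e-08). Chek1 (2.23 ± 0.14) and Prkdc (1.89 ± 0.21) were higher as well, and Trp53bp1 (-1.62 ± 0.19) and H2afx (-1.31 ± 0.15) were lower. In germ cells under 10000 UMIs Csnk1e fell by 1.26 on the log2 scale (edgeR adjusted p = 0.0213), and Birc6, an apoptosis inhibitor, was higher by 1.67 ± 0.35 (adjusted p = 0.0455). Markers of other cells were also higher in these shallow cells: those of granulosa cells outside the assignment summed to 141 and 88.7 against 10.4 and 37.0 CPM, those of interstitial cells to 23.5 and 146 against 14.7 and 26.5, and those of erythroid cells to 235 and 107 against 6.98 and 21.9. Their part in the Csnk1e, Birc6 and Bax values was not tested.

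The p53 target genes were split, with 6 of 18 higher and 7 lower (median -0.20). Perp (3.72 ± 0.29), Aen (2.77 ± 0.15) and Xpc (2.26 ± 0.16) were higher, and Btg2 (-4.35 ± 0.35), Ddit4 (-4.24 ± 0.44) and Gadd45b (-3.19 ± 0.22) were lower. Of the death receptors and their adaptors, 9 of 11 were tested, 1 was higher and 7 were lower (median -2.03). Tnfrsf1a was at 0.826 and 3.49 in germ cells against 52.3 to 97.3 and Casp8 at 1.00 and 1.58 against 16.9 to 43.7. Fas had 0 and 1 UMI in germ cells. The ligand gene Tnfsf10, at 3.60 and 2.41, had 10 UMIs in all somatic cells together.

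For the somatic classes the same lists were set against the mean of the other classes, germ cells included. The backgrounds are the shares of all genes given above, 26.2% higher and 22.1% lower in granulosa, 27% and 27.7% in interstitial and 21.5% and 20.2% in mesothelial cells, and several of the counts are near them. In granulosa cells the counts of genes higher and lower than the mean of the other classes were 4 and 5 of 11 in the BCL2 family, 5 and 3 of 16 for the apoptosome and caspases, 2 and 4 of 15 for the damage kinases and regulators, 5 and 2 of 18 for the p53 targets and 4 and 0 of 9 for the death receptors. Called changes among them were those of Bok (2.16 ± 0.34), Birc5 (-2.03 ± 0.14), Trp53bp1 (0.60 ± 0.17), Chek1 (-1.49 ± 0.18), Btg2 (1.79 ± 0.24), Aen (-1.40 ± 0.19) and Casp8 (1.96 ± 0.16), and Bcl2l10 was lower with 3 UMIs in each library. Bok, Casp8 and Trp53bp1 were about as high in mesothelial cells, at mean levels of 129, 40.5 and 17.9 CPM against 134, 38.1 and 18.1 in granulosa cells. In interstitial cells the counts were 2 and 4, 6 and 3, 3 and 8, 6 and 5, and 4 and 0 in the same order. Named changes were those of Bmf (1.73 ± 0.34), Bid (-1.71 ± 0.20), Casp6 (-0.91 ± 0.14), H2afx (1.02 ± 0.13), Csnk1e (-1.75 ± 0.12), Phlda3 (3.77 ± 0.23) and Perp (-2.90 ± 0.45), while Fas stood at 5.32 and 3.09 CPM. In mesothelial cells they were 5 and 3, 3 and 4, 2 and 8, 4 and 4, and 7 and 0, led by Bok (2.08 ± 0.35), Bnip3 (-3.43 ± 0.31), Htra2 (1.28 ± 0.10), Diablo (-0.73 ± 0.12), H2afx (0.91 ± 0.13), Csnk1e (-1.12 ± 0.12), Ddit4 (3.51 ± 0.30), Polk (-0.79 ± 0.27) and Casp8 (2.08 ± 0.17).

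Across the 8 sums of class and library, the genes whose log2 level followed that of Trp63 most closely were Zfp169, Golga2, Chn1, Zfyve28 and Abhd13, with Pearson's r of 0.974 to 0.978. The classes of a library share a droplet run, and the 8 points fall into germ and somatic values, so these correlations are a description only.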

How the data were processed

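Per the labels and the file headers, the authors made the deposited values with Cell Ranger 3.0.2 on GRCm38 as UMI counts per gene and cell, without normalization, for 2 libraries of whole CD1 mouse ovaries at postnatal day 2. The labels and the study's methods name different versions of the capture kit. The annotation version is not given in the sources used here.

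Cells with fewer than 500 genes or over 10% mitochondrial UMIs (356 and 383) and predicted doublets by Scrublet (96 and 93) were removed. The Scrublet threshold of library 1 was used for both, because the automatic one marked 2 cells in library 2. Cells were assigned to a class where its marker genes had at least 2 UMIs and reached 6 (germ), 4 (granulosa), 10 (interstitial) or 1 (mesothelial) per 10000 UMIs, levels set after the distributions were seen. Cells passing the mesothelial and granulosa gates, but no other gate, were kept as mesothelial. Cells passing no gate (218 and 283) or any other combination of several (111 and 401) were left out. Leiden clusters (scanpy 1.11.5) were made without the 10 genes and named from markers.

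UMIs were summed per library and class (8 sums), filtered with filterByExpr, scaled by TMM and tested with the quasi-likelihood test of edgeR 4.0.16 in R 4.3.3, all genes together, with Benjamini-Hochberg adjustment at 0.05. A prior count of 2 was used for the log2 CPM of the sums, and the test kept edgeR's default. Intervals are exact Poisson or Clopper-Pearson at 95% and, like the floor of 3 counts, cover counting error only. P-values measure the spread between 2 libraries from pooled pups. The libraries pair the classes, since classes of 1 library share a droplet run: the correlation of library differences between classes was 0.106 to 0.258 over 15228 genes, and 0.0801 between germ cells below and above 10000 UMIs over 12462 genes. The tests were tried first on simulated counts without a shared library effect, which do not cover the pairing of the classes. Alternatives were other scalings, DESeq2 1.42.0, no filter, a replicate block, other gates and filters, thinning, and leaving out a library.

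The genes, lists and tests were chosen with earlier results of these data known. All 10 genes and, from each pathway list, up to 3 genes with the largest called change in each direction are named for germ cells against the other classes, and 1 for each somatic class and for germ cells below 10000 UMIs. Comparisons of germ cells with single classes are given for the 10 genes alone. Genes named in the cells with 5 or more Bbc3 UMIs were chosen after their values were seen. Some named genes of the marker and pathway lists are not reported here.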

Additional observations from a re-analysis of the deposited data

Results flagged for a closer look

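UMIs of 9 of the 10 genes were found in clusters outside the 4 classes, the endothelial, immune and perivascular cells (310 cells of both libraries), which none of the comparisons used. These clusters held 472 UMIs of Bax, 420 of Mcl1, 413 of Trp53, 130 of Bcl2, 89 of Bcl2l1, 83 of Bcl2l11, 45 of Bbc3, 34 of Chek2 and 34 of Pmaip1, all above the 3 counts that a count of 0 allows. Trp63 had 0 UMIs there.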

How the results depend on the processing

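With 2 libraries, leaving 1 out leaves no residual degrees of freedom, so those values carry no test. They are plain differences of log2 CPM and can differ from the fitted values for that reason too. With cells thinned to 2000 UMIs the number of genes called fell to 7162 (germ cells against the other classes), 3722 (granulosa), 4710 (interstitial) and 2252 (mesothelial), and to 6908, 7136 and 5750 for germ cells against granulosa, interstitial and mesothelial cells, where fewer UMIs remained. Thinning, a single random draw, turned Bcl2l1 to -0.44 against the other classes and -0.28 against interstitial cells. It moved the median of all genes in the former comparison from 0.08 to -0.15. The mean expected share of cells with a Bcl2l1 UMI at that depth was 5.10% in germ cells. It was 4.49% in granulosa, 4.25% in interstitial and 4.31% in mesothelial cells. Bbc3 in germ cells against the other classes turned to -0.030 with a stricter gate, -0.045 with the summed other cells as reference and -0.062 without replicate 2, and was 0.43 without replicate 1; none of these was a call, and the cause was not tested. Pmaip1 in that comparison had an adjusted p of 0.093 by DESeq2, and Bcl2l11 of 0.0568 after thinning. Between germ cells below and above 10000 UMIs, 258 genes were called by library size scaling, 164 without a filter, 14 by DESeq2, 129 with a stricter gate, 5 without the mitochondrial filter, 251 with doublets kept, 255 with the limit at 5000 UMIs and 29 at 20000; the cause was not tested. With the replicate block no call of the 10 genes changed in any comparison, and Bax there was -0.85 (edgeR adjusted p = 0.335). The median log2 ratio of the p53 target genes in cells with 5 or more Bbc3 UMIs, averaged over the libraries, was 1.13, and with limits of 3 or 8 UMIs or without the cell of most Bbc3 UMIs in each library, also chosen after the data were seen, it was 0.81, 1.14 and 0.79. The limit of 8 kept the same 6 cells in library 2 and 3 of the 4 in library 1, so its value could hardly differ. Leaving those cells out of the germ sums, a choice made after the data were seen, turned Bbc3 against the other classes to -0.52 (edgeR adjusted p = 0.0709), by construction, and Pmaip1 lost its calls against the other classes and interstitial cells.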
